A study of Rattus norvegicus with 24 samples.

Results

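The genes described here are the matrix metalloproteinases (Mmp), the ADAMTS proteases (Adamts), the ADAMTS-like proteins (Adamtsl) and the tissue inhibitors of metalloproteinases (Timp) of rat brain. They were chosen by name alone, as every row of the count table called Mmp, Adamts or Adamtsl followed by a number, or Timp1 to Timp4. The rule found 50 of the table's 29539 genes, namely 23 Mmp, 19 Adamts, 5 Adamtsl and 3 Timp genes, and Timp2 was not analysed here. RNA from brain was compared in 3 groups of 8 samples. SKF rats had a stab wound in the forebrain and received SKF-81297, an agonist of D1-like dopamine receptors, by intraperitoneal injection once daily for 3 days from 1 h after the wound. Vehicle samples carry that word alone and were read as wounded animals given the carrier without the agonist. Normal control samples are named only as such, with no mention of a sham operation. The labels give no brain region, time of collection, sex, age or strain, and nothing in them ties the 8 samples of a group to different animals, so each p-value below measures the spread between these samples.

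Matrix metalloproteinases are zinc enzymes that cut collagens, laminins, other matrix proteins and many cell-surface proteins. Most are secreted as inactive precursors, and the membrane-type members stay anchored at the cell surface. ADAMTS proteases are secreted relatives of the ADAM family, and several of them cut the large chondroitin sulfate proteoglycans that fill the space between brain cells. TIMPs bind the active site of these enzymes and block it. In injured brain these proteins are known for opening of the blood-brain barrier, passage of leukocytes and remodelling of the scar.

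Of the 50 genes, 40 had enough counts to be tested and 10 did not. The untested genes were Mmp1, Mmp1b, Mmp7, Mmp10, Mmp13, Mmp20, Mmp21, Mmp27, Adamts16 and Adamts18. Mmp1 and Mmp27 had 0 counts in all 24 libraries, and 8 of the 10 had at most 4 counts in any library. Adamts16 had 50 counts summed over the SKF libraries, 26 over vehicle and 56 over normal control, and Adamts18 had 36, 59 and 24 in the same order. Among the tested genes, Mmp3, Mmp8, Mmp12 and Mmp25 had under 10 counts in every normal control library, so they passed the filter through the wounded groups and had to differ. Library totals ran from 8911339 to 12383368 counts. Markers of neurons, astrocytes and oligodendrocytes were detected in every library, as the label brain requires, while skeletal muscle markers reached a summed 2545 TPM (a level scaled to transcript length and to the same total in each library) in normal control 4 against at most 18.6 TPM in any wounded library.

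On chromosome 8, 10 Mmp genes lie in a row with 0 other protein-coding genes between them, in the order Mmp13, Mmp12, Mmp1b, Mmp3, Mmp1, Mmp10, Mmp8, Mmp27, Mmp20 and Mmp7 (RefSeq gene order). Mmp3 and Mmp12 had the largest fold changes of the proteases described here and Mmp8 was also higher in both wounded groups, while the other 7 had too few counts to test. The 100 bases before the start of 5 of these genes, and of Timp1 on chromosome X, are printed to show how alike or unlike the promoters of genes with such different levels are. The sequences are from RefSeq on build GRCr8, 5′ to 3′ on the gene's own strand, whereas the counts were made on mRatBN7.2. Capitals mark the letters TGAGTCA (or TGACTCA on the other strand), the binding motif of the transcription factor AP-1, and TATAAA (or TTTATA), the TATA box.
Mmp3: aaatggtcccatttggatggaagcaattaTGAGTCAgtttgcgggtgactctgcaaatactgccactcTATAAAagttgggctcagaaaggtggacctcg
Mmp12: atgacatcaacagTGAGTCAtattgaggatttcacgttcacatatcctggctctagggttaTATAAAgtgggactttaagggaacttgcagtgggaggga
Mmp8: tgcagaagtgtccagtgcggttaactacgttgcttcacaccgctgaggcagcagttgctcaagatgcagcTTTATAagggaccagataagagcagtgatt
Mmp10: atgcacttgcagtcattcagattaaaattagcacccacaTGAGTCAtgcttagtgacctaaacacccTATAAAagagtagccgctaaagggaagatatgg
Mmp13: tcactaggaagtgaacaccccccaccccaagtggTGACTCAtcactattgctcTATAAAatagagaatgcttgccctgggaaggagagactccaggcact
Timp1: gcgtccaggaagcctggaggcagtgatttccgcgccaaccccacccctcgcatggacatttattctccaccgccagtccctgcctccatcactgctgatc
These stretches are chr8:12925181-12925280 for Mmp3, chr8:12866552-12866651 for Mmp12, chr8:13008790-13008889 for Mmp8, chr8:12974607-12974706 for Mmp10 and chr8:12782729-12782828 for Mmp13, each on the plus strand, and chrX:3771123-3771222 on the minus strand for Timp1.

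The AP-1 letters begin 71 bases before the start of Mmp3 and 87 bases before that of Mmp12, and the TATA letters follow at 32 and 39 bases. Mmp8 holds TATA letters but no AP-1 letters, and Timp1 holds neither. Both motifs were searched on both strands from 250 bases before to 50 bases after the start, and their letters do not overlap. A RefSeq promoter was matched for 39 of the 50 genes. Mmp2, Mmp9, Mmp14, Mmp16, Mmp17, Mmp19, Adamts5, Adamts8, Adamts15, Adamts16 and Adamts19 had no match and were not searched. AP-1 letters were found in 6 of the 39 (Mmp1, Mmp3, Mmp7, Mmp10, Mmp12 and Mmp13), all in the chromosome 8 row. Each of these 6 also held the TATA letters. Of all 33469 promoter entries in the table, 4.63% held the AP-1 letters, 14.2% the TATA letters and 0.762% both. Neighbouring Mmp genes share sequence, so the 6 are not independent, and a match is a description of letters, not of binding.

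Against normal control, the wounded libraries of the vehicle group differed most in one inhibitor and a small set of proteases, all but one of them secreted. Timp1, Mmp3, Mmp12, Adamts7, Mmp8, Adamts1, Mmp9, Mmp19, Adamts9 and Mmp25 were higher by at least 2-fold, and Timp4 and Adamts15 were lower by as much. In the edgeR quasi-likelihood test (Benjamini-Hochberg adjusted over 14421 genes, threshold 0.05), 14 of the 40 tested genes were higher in vehicle, 9 were lower and 17 did not pass. That is 57.5% of the genes tested here against a background of 54.0% of all genes, so the share of calls is near the background. The background for higher calls is 26.9% and for lower calls 27.1%. With at least a 2-fold change, 10 genes were higher (background 7.69%) and 2 were lower (background 3.29%). The groups did not overlap in TPM for 12 genes (10 higher and 2 lower, background 20.0%). Mmp3, Mmp8, Mmp12 and Mmp25, which had to differ because of the filter on counts, are in the counts of higher genes and of 2-fold changes. Mmp3, Mmp8 and Mmp12 are also among the genes without overlap. Part of these counts was therefore fixed in advance, and the number of such genes in the background was not counted. The median log2 fold change of the 40 was 0.15, and that of all genes was -0.01. On the TPM scale with limma the split was 18 higher and 6 lower, on a scale where the median of all genes was itself shifted by 0.11 to 0.12 on the log2 scale.

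The inhibitors moved in opposite directions. Timp1, an inducible secreted inhibitor, had a lowest, median and highest level of 255, 317 and 395 TPM in SKF, 278, 335 and 490 TPM in vehicle, and 1.99, 5.46 and 7.79 TPM in normal control. Every wounded library was far above every normal control library, and the SKF and vehicle ranges overlapped. The log2 fold change was 5.94 ± 0.20 (SE) in vehicle and 5.80 ± 0.20 in SKF, each against normal control (edgeR adjusted p = 8.4e-18 and 1.63e-17). In bulk tissue, fewer cells of a type and less RNA per cell cannot be told apart, and this holds for every level given here.

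Timp4, an inhibitor abundant in brain, had a lowest, median and highest level of 5.38, 7.31 and 11.7 TPM in SKF, 3.38, 7.12 and 8.89 TPM in vehicle, and 8.99, 18.1 and 23.7 TPM in normal control. All 8 vehicle libraries and 7 of the 8 SKF libraries lay below the lowest normal control library. Timp4 had a log2 fold change of -1.46 ± 0.20 in vehicle and -1.22 ± 0.19 in SKF (edgeR adjusted p = 6.71e-07 and 8.35e-06). Timp3, which stays bound to the matrix and also inhibits ADAMTS proteases, had 35.9, 43.1 and 53.0 TPM in SKF, 41.5, 45.9 and 56.7 TPM in vehicle, and 39.1, 55.4 and 63.1 TPM in normal control. The 3 ranges overlapped. Its log2 fold change was -0.30 ± 0.09 in vehicle (edgeR adjusted p = 0.00507; lost on the TPM scale, -0.16, adjusted p = 0.156) and -0.40 ± 0.09 in SKF (adjusted p = 0.000398).

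In the wounded groups, where Timp3 and Timp4 were lower, glial markers were mixed. Of the astrocyte markers 6 of 7 were lower in both (median log2 fold change -0.75 in vehicle and -0.73 in SKF) and 1 was higher. Their summed level was higher in the wounded groups without overlap, at 4150 to 4826 TPM in SKF, 3456 to 5054 TPM in vehicle and 2529 to 3280 TPM in normal control. The 6 oligodendrocyte markers were lower in both (median -0.79 in vehicle and -0.88 in SKF), with sums of 6251 to 10219.9 TPM in SKF, 8218 to 12153 TPM in vehicle and 9524 to 18019 TPM in normal control. The 3 precursor markers were also lower in both, with sums of 53.2 to 77.7 TPM in SKF, 54.3 to 88.8 TPM in vehicle and 109.1 to 138.9 TPM in normal control. Of the 7 microglia markers, 2 were higher and 2 lower in vehicle (median -0.07), and 1 was higher and 3 lower in SKF (median -0.17). Their sums were 189 to 254 TPM in SKF, 201 to 275 TPM in vehicle and 200 to 240 TPM in normal control. None of these markers was at 0, and their part in the Timp results was not tested.

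**Figure D1:**
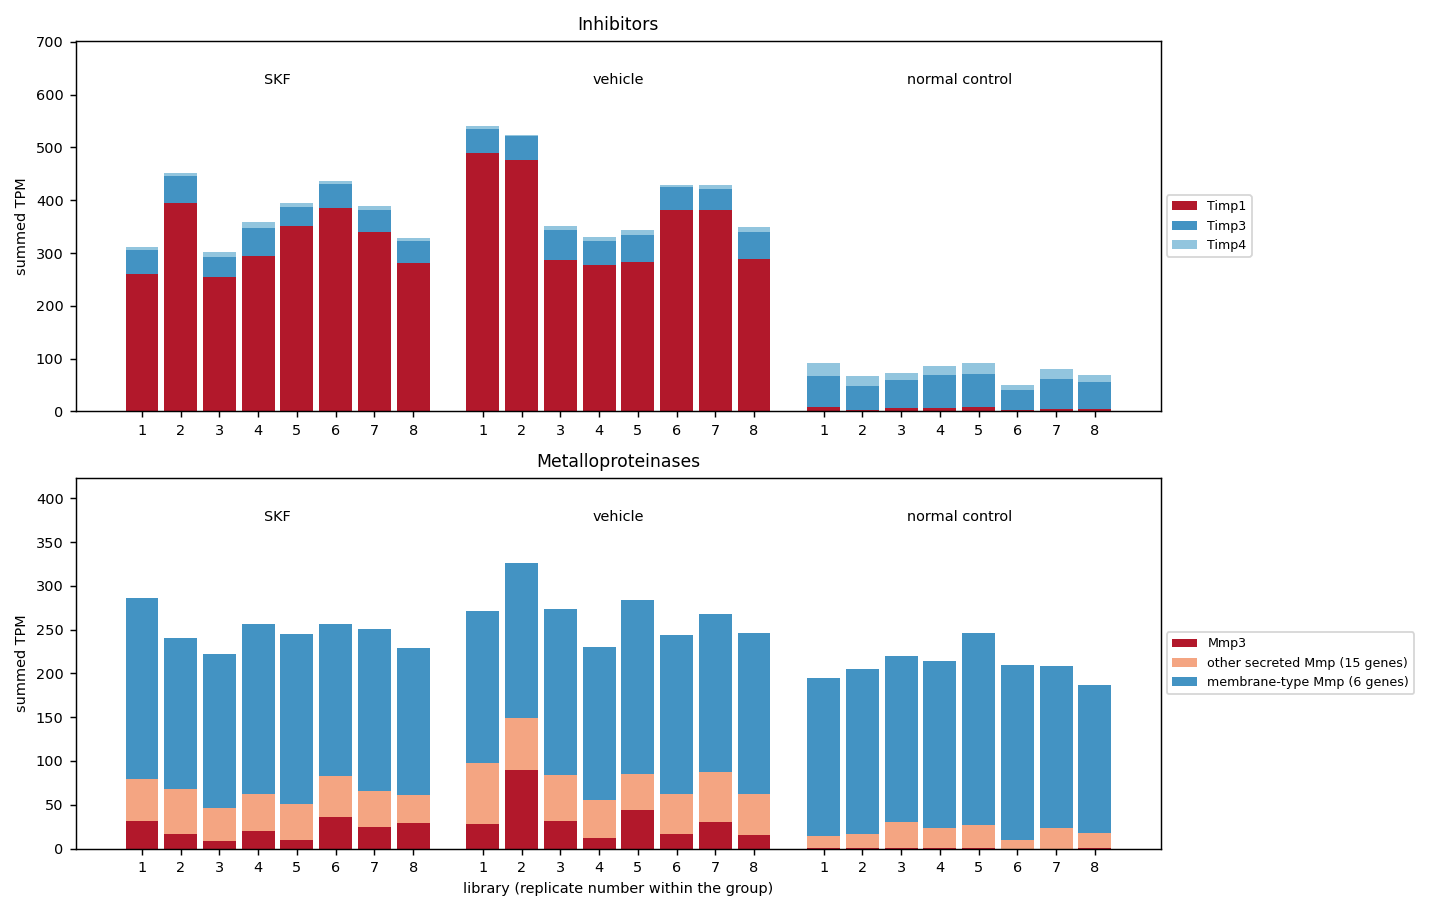
Summed level (TPM) of Timp1, Timp3 and Timp4 (upper panel) and of 22 metalloproteinases (lower panel) in each library, 8 per group. Bars are stacked by gene or gene class. Timp1 fills most of the inhibitor bar in SKF and vehicle and a median 7.05% of it in normal control, while the membrane-type segment is of similar height in the 3 groups.

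The make-up of the RNA of Timp1, Timp3 and Timp4 differed accordingly. Timp2 was not analysed here, so the Timp sums and shares below are of these 3 genes and not of all Timp RNA. The summed level of the 3 had a median of 373.5 TPM in SKF (302.2 to 451.5), 390.3 TPM in vehicle (330.2 to 540.1) and 76.5 TPM in normal control (50.1 to 91.4). Timp1 made up a median 86.5% of it in SKF, 86.3% in vehicle and 7.05% in normal control. Timp3 made up 11.8% in SKF, 12.0% in vehicle and 71.6% in normal control. The summed level of the 16 secreted Mmp genes was also higher in the wounded groups. Medians were 64.2 TPM in SKF (46.8 to 82.6), 84.5 TPM in vehicle (55.9 to 148.7) and 20.8 TPM in normal control (9.63 to 30.3). Mmp3 alone made up 34.2% of the mean sum in SKF and 39.0% in vehicle. In normal control the largest part was Mmp2 at 54.7%, a gene that did not pass in vehicle or SKF. The 6 membrane-type genes summed to a median of 180.1 TPM in SKF, 181.0 TPM in vehicle and 188.8 TPM in normal control, with overlapping ranges.

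**Figure D2:**
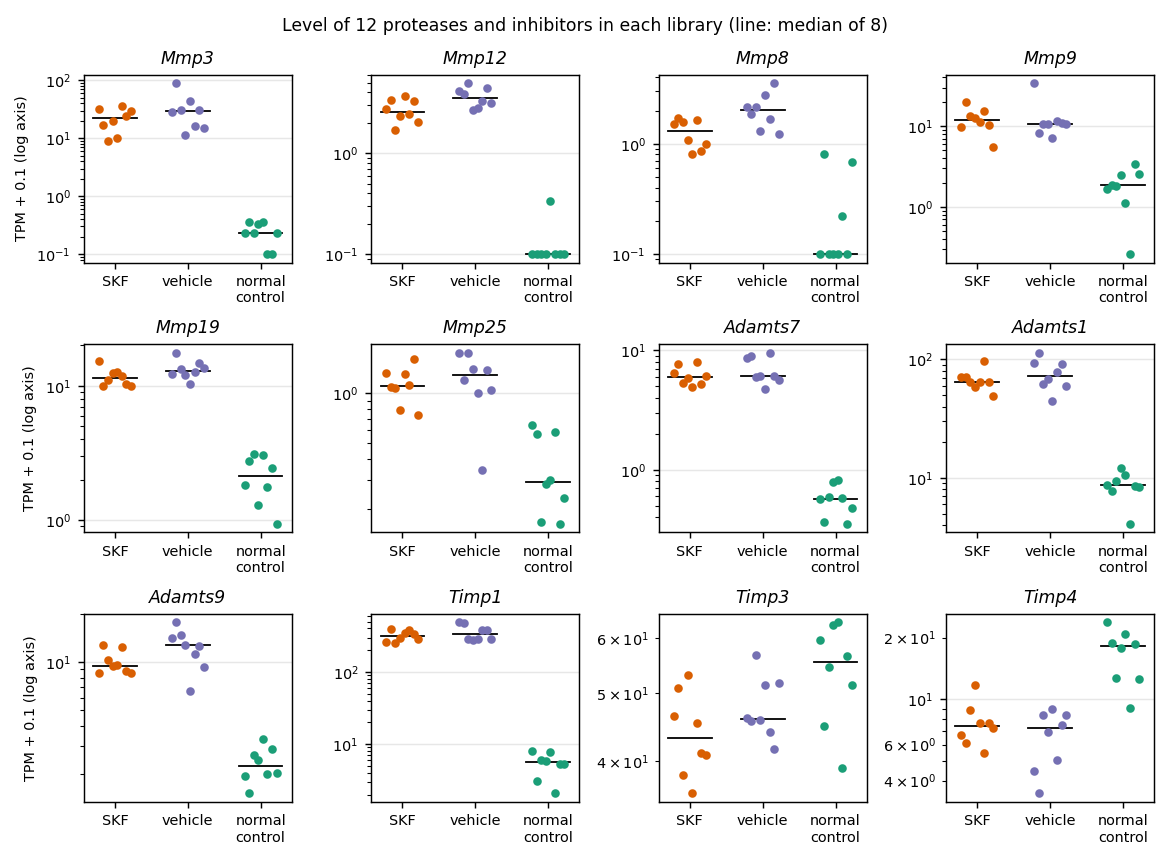
Level (TPM + 0.1, log axis) of 12 proteases and inhibitors in each library of SKF, vehicle and normal control, with points for libraries and a line at the median of 8. Mmp3, Mmp12, Mmp8, Mmp9, Mmp19, Adamts7, Adamts1, Adamts9 and Timp1 show no overlap between wounded and normal control libraries, and Timp3 and Timp4 lie lower in the wounded groups.

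Among the secreted metalloproteinases, the stromelysin Mmp3, which cuts proteoglycans and activates other Mmp precursors, had the largest difference. Its lowest, median and highest levels were 9.03, 22.3 and 35.6 TPM in SKF, 11.5, 29.5 and 89.9 TPM in vehicle, and 0, 0.132 and 0.262 TPM in normal control. Each wounded library was above each normal control library, and the highest value belonged to vehicle 2. The log2 fold change was 7.58 ± 0.64 in vehicle and 7.00 ± 0.66 in SKF (edgeR adjusted p = 1.09e-09 and 6.82e-09). Because the 8 normal control libraries together held 9 counts, against 1372 in SKF and 1913 in vehicle, the size is loosely fixed: the depth-scaled ratio to normal control was 228 in vehicle (95% exact interval 120 to 500) and 153 in SKF (80.3 to 335), covering counting error only. On log2(TPM + 1) the vehicle value was 4.64.

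Mmp12, the macrophage elastase, fell outside the level set for full description, as did Mmp8 and Mmp25, and the 3 are described after their values were seen. Mmp12 had 1.61, 2.49 and 3.57 TPM in SKF, 2.56, 3.44 and 4.85 TPM in vehicle, and 0, 0 and 0.237 TPM in normal control. Counts were present in every wounded library and in a single normal control library, number 5, with 2 counts. The count ratio to normal control was 122 in vehicle (95% exact interval 33.4 to 1012) and 88.7 in SKF (24.2 to 738). The edgeR log2 fold change was 6.24 ± 0.44 in vehicle (adjusted p = 2.92e-12) and 5.81 ± 0.45 in SKF (adjusted p = 2.69e-11), and without normal control 5 it was 7.85 and 7.42. Monocyte and macrophage markers moved with it: all 9 tested of 10 were higher in both wounded groups, and their summed level was 399 to 803 TPM in SKF, 598 to 882 TPM in vehicle and 46.0 to 61.4 TPM in normal control, with none of the 10 at 0. Within groups, Mmp12 had Pearson r = 0.64 with that sum in SKF (exact permutation p = 0.0855, adjusted p = 0.178, n = 8; Spearman rho = 0.74, p = 0.0458, adjusted p = 0.180). In vehicle it had r = 0.68 (exact permutation p = 0.0713, adjusted p = 0.178, n = 8; rho = 0.71, p = 0.0576, adjusted p = 0.180). Without the 2 farthest libraries r was 0.68 in SKF and 0.65 in vehicle. The part of these markers in the difference from normal control was not tested.

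Mmp8, the neutrophil collagenase, had 0.707, 1.20 and 1.63 TPM in SKF, 1.14, 1.92 and 3.45 TPM in vehicle, and 0, 0 and 0.705 TPM in normal control. The lowest SKF library was only just above the highest normal control library. Its log2 fold change was 3.29 ± 0.52 in vehicle (edgeR adjusted p = 5.2e-06) and 2.56 ± 0.54 in SKF (adjusted p = 0.000265); without normal control 2 it was 4.01 in vehicle and 3.29 in SKF. Mmp9, a gelatinase stored in neutrophil granules and known for opening the blood-brain barrier, had 5.39, 11.8 and 19.6 TPM in SKF, 6.99, 10.5 and 34.0 TPM in vehicle, and 0.161, 1.74 and 3.32 TPM in normal control. The 34.0 TPM came from vehicle 1, and the next vehicle library had 11.4 TPM. The Mmp9 log2 fold change was 2.69 ± 0.36 in vehicle and 2.64 ± 0.36 in SKF (edgeR adjusted p = 1.11e-06 and 1.62e-06).

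Neutrophil markers also moved with these proteases. All 5 tested of 13 were higher in both wounded groups, and the summed level of the 13 was 78.6 to 144.3 TPM in SKF (median 121.5), 145.1 to 380.1 TPM in vehicle (median 181.7) and 5.27 to 11.8 TPM in normal control (median 7.58). Ltf was at 0 in the 3 groups, and Elane and Trem1 were at 0 in normal control. Vehicle 1, with the highest Mmp9, also had the highest neutrophil sum. Within vehicle, Mmp9 and the neutrophil sum had Pearson r = 0.86 (exact permutation p = 0.0656, adjusted p = 0.178, n = 8) and Spearman rho = 0.48 (p = 0.243, adjusted p = 0.497); without the 2 libraries farthest from the median r was 0.23, so the relation rests on those libraries. In SKF the same relation had r = -0.09 (rho = -0.14) and in normal control r = 0.35 (rho = 0.36), and for Mmp8 r was 0.32 in SKF (rho = 0.24) and 0.13 in vehicle (rho = 0.21), none of which passed the exact permutation test. The part of the neutrophil markers in the Mmp8 and Mmp9 results was not tested.

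Mmp19, a secreted metalloproteinase with a broad range of matrix substrates, had 9.86, 11.4 and 15.1 TPM in SKF, 10.1, 12.9 and 17.6 TPM in vehicle, and 0.844, 2.05 and 3.04 TPM in normal control. The wounded and normal control libraries were well separated. Mmp19 had a log2 fold change of 2.56 ± 0.18 in vehicle and 2.39 ± 0.18 in SKF (edgeR adjusted p = 2.31e-12 and 1.11e-11). Mmp28, known as epilysin, went the other way, with a log2 fold change of -0.47 ± 0.15 in vehicle (adjusted p = 0.00905, lost on the TPM scale at -0.26 with adjusted p = 0.0602) and -0.73 ± 0.15 in SKF (adjusted p = 0.000184). Mmp11 and Mmp23 did not pass in any comparison.

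**Figure D3:**
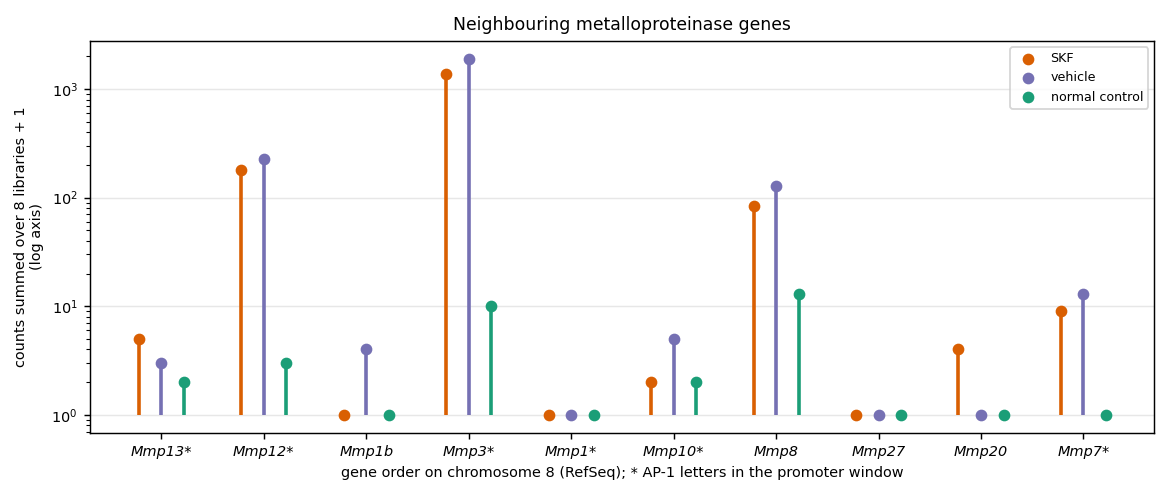
Counts summed over the 8 libraries of each group (plus 1, log axis) for the 10 neighbouring Mmp genes in their order on chromosome 8, with an asterisk where the promoter window holds the AP-1 letters. Mmp3, Mmp12 and Mmp8 stand far above their neighbours in SKF and vehicle, and Mmp1 and Mmp27 have 0 counts in the 3 groups.

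The neighbours of Mmp3 on chromosome 8 had few or no counts. Mmp13, a collagenase, had 4 counts over the SKF libraries, 2 over vehicle and 1 over normal control. Mmp10, the other stromelysin, whose promoter is printed above with the same AP-1 and TATA letters as Mmp3, had 1, 4 and 1 counts in SKF, vehicle and normal control. Mmp7, the matrilysin, had 8 counts over SKF, 12 over vehicle and 0 over normal control, and no library had more than 3. Mmp20 and Mmp1b had 3 counts or fewer summed over any group. Of the 6 genes with AP-1 letters, Mmp3 and Mmp12 were tested and higher, and the other 4 had too few counts to test. Mmp3 and Mmp12 passed the filter through the wounded groups and had to differ, so this count was fixed in advance. Of the 10 genes higher in vehicle with a matched promoter, 2 held AP-1 letters. Among the genes that were lower and those that did not pass, 0 of 7 and 0 of 13 did.

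**Figure D4:**
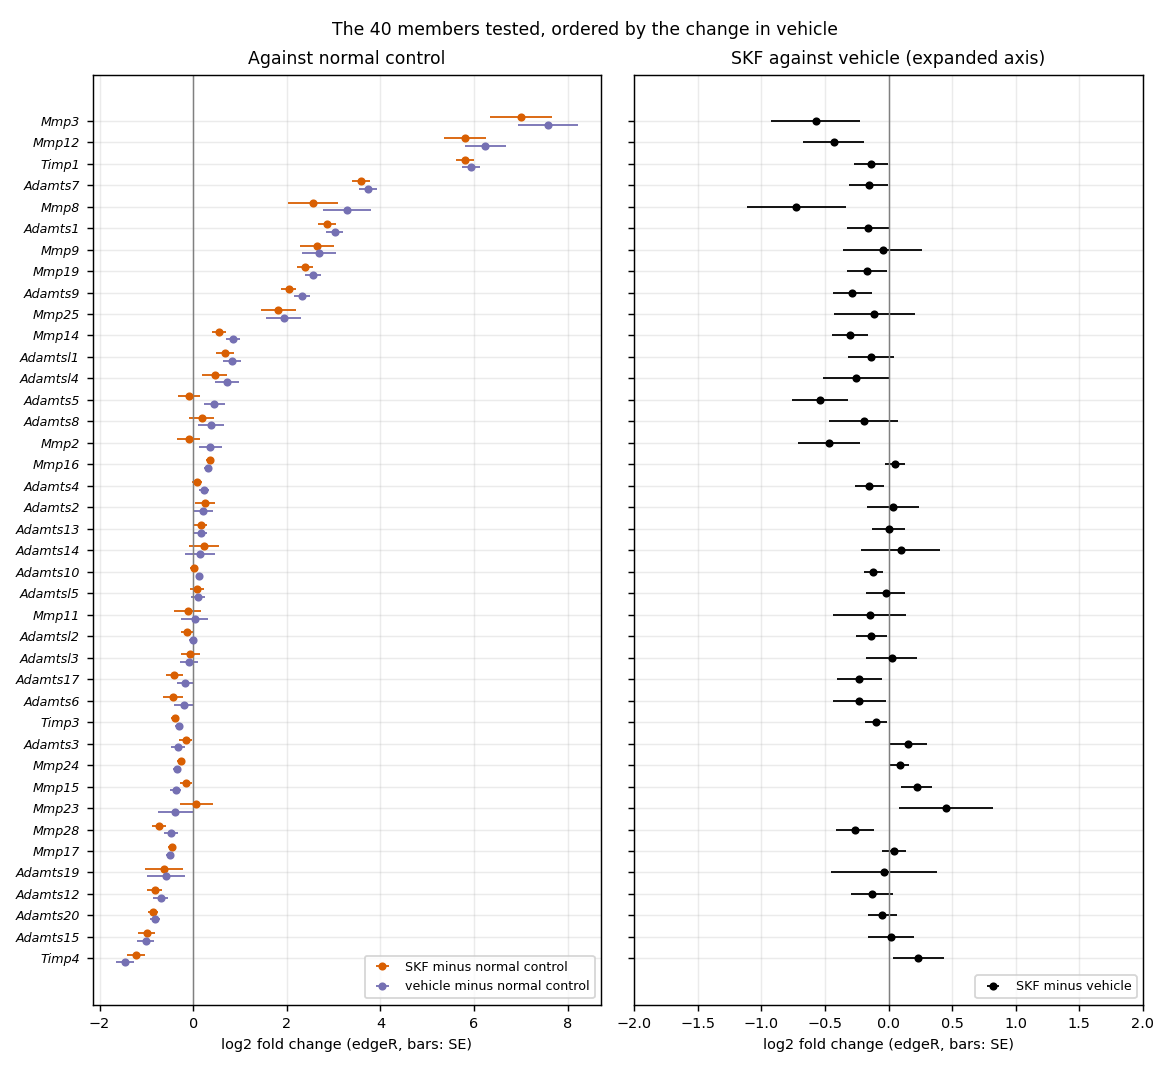
Log2 fold change (edgeR, bars show SE) of the 40 tested genes, ordered by the change in vehicle. The left panel shows SKF and vehicle, each against normal control, and the right panel shows SKF against vehicle on an expanded axis, where the values lie between -0.72 for Mmp8 and 0.45 for Mmp23.

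Membrane-type metalloproteinases were split. In vehicle 3 of the 6 were higher and 3 lower, where 26.9% of all genes were higher and 27.1% lower. In SKF 3 were higher, 2 were lower and 1 did not pass, where 25.5% of all genes were higher and 24.7% lower. Mmp25 is among the 3 higher genes in both comparisons. It had at most 8 counts in any normal control library and had to differ because of the filter, so part of these counts was fixed in advance. Mmp14, which activates the Mmp2 precursor at the cell surface, had 20.9, 26.7 and 34.6 TPM in SKF, 23.0, 29.3 and 45.1 TPM in vehicle, and 10.8, 16.8 and 21.8 TPM in normal control. All vehicle libraries and 7 of 8 SKF libraries were above the highest normal control library. Its log2 fold change was 0.86 ± 0.15 in vehicle (edgeR adjusted p = 2.05e-05) and 0.55 ± 0.15 in SKF (adjusted p = 0.00279). Mmp16 was higher by 0.31 in vehicle and 0.36 in SKF on the log2 scale. Mmp25, a leukocyte enzyme anchored by a lipid tail, had 0.636, 1.00 and 1.502 TPM in SKF, 0.243, 1.18 and 1.65 TPM in vehicle, and 0.0636, 0.191 and 0.543 TPM in normal control. Vehicle 6, at 0.243 TPM, was the one wounded library within the normal control range, and the log2 fold change was 1.93 ± 0.38 in vehicle and 1.82 ± 0.38 in SKF (edgeR adjusted p = 9.8e-05 and 0.000232).

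Mmp17 and Mmp24, membrane-type enzymes found in neurons, are among the most abundant Mmp genes in this tissue. Mmp17 had 46.1 to 66.5 TPM in SKF, 48.2 to 67.1 TPM in vehicle and 59.1 to 89.1 TPM in normal control. Its log2 fold change was -0.49 in vehicle and -0.45 in SKF, past the threshold in both. Mmp24 was lower by 0.35 in vehicle and 0.26 in SKF on the log2 scale, the SKF call being lost on the TPM scale (adjusted p = 0.107). Mmp15 had a log2 fold change of -0.38 in vehicle (edgeR adjusted p = 0.012, lost on the TPM scale with adjusted p = 0.145) and -0.16 in SKF, where it did not pass (adjusted p = 0.304). Neuron markers were lower in the same libraries, 5 of 6 in vehicle and 4 of 6 in SKF, with summed levels of 3368 to 4200 TPM in SKF, 2473 to 4475 TPM in vehicle and 3723 to 5138 TPM in normal control and none at 0, and their part in these results was not tested.

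The gelatinase Mmp2, which Mmp14 activates, did not pass in vehicle or SKF. It had 7.34, 11.1 and 15.6 TPM in SKF, 12.1, 14.2 and 22.1 TPM in vehicle, and 3.76, 11.4 and 19.7 TPM in normal control. The normal control range was the widest and enclosed all the SKF values. Its log2 fold change was 0.37 ± 0.25 in vehicle (edgeR adjusted p = 0.214; past the threshold on the TPM scale at 0.59) and -0.10 ± 0.25 in SKF. The spread among normal control libraries followed the summed level of 7 fibroblast and meningeal markers, which was 120.0 to 179.2 TPM in SKF, 141.6 to 189.9 TPM in vehicle and 61.3 to 184.5 TPM in normal control, with none of the 7 at 0. Within normal control, Mmp2 had Pearson r = 0.92 with that sum (exact permutation p = 0.00203, adjusted p = 0.0264 over 13 relations, n = 8) and Spearman rho = 0.88 (p = 0.00724, adjusted p = 0.0941), with r = 0.90 without the 2 farthest libraries. Mmp14 had r = 0.87 (exact permutation p = 0.00734, adjusted p = 0.0477) and rho = 0.76 (p = 0.0368, adjusted p = 0.180), with r = 0.71 without the 2 farthest. These relations were chosen after the values were seen, and none of the other 11 passed after adjustment.

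**Figure D5:**
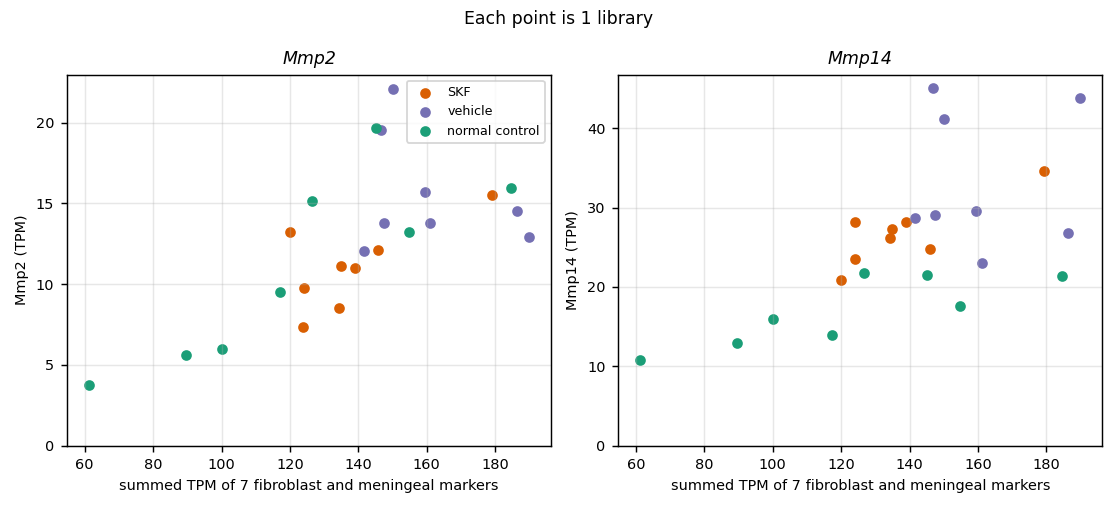
Level of Mmp2 (left) and Mmp14 (right) in TPM against the summed TPM of 7 fibroblast and meningeal markers, with 1 point per library of SKF, vehicle and normal control. Normal control libraries line up from low to high, and vehicle libraries do not (Mmp2, Pearson r = -0.27). In SKF Pearson r was 0.61 for Mmp2 and 0.79 for Mmp14, neither past the threshold after adjustment. Without the 2 farthest libraries these SKF values were 0.75 and 0.05.

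Among the ADAMTS proteases, 3 of 17 tested were higher, 3 were lower and 11 did not pass in vehicle, where 26.9% of all genes were higher and 27.1% lower. The counts were the same in SKF, where 25.5% of all genes were higher and 24.7% lower. Adamts1, an inducible protease that cuts aggrecan and versican, had 49.3, 64.5 and 96.3 TPM in SKF, 44.6, 72.6 and 114 TPM in vehicle, and 4.02, 8.59 and 11.9 TPM in normal control. There was no overlap of wounded and normal control libraries. Adamts1 had a log2 fold change of 3.02 ± 0.19 in vehicle and 2.86 ± 0.19 in SKF (edgeR adjusted p = 2.8e-12 and 8.68e-12). Adamts1 made up a median 33.4% of the summed Adamts level in SKF, 33.0% in vehicle and 6.76% in normal control. Its direct neighbour on chromosome 11, Adamts5, another aggrecan-cutting enzyme, did not pass, with a log2 fold change of 0.45 ± 0.22 in vehicle (adjusted p = 0.0896, past the threshold on the TPM scale) and -0.09 ± 0.23 in SKF.

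Adamts7, which cuts cartilage oligomeric matrix protein, had 4.87, 5.87 and 7.81 TPM in SKF, 4.66, 5.95 and 9.47 TPM in vehicle, and 0.254, 0.470 and 0.725 TPM in normal control. Adamts9, a versican-cutting protease, had 8.43, 9.37 and 12.6 TPM in SKF, 6.53, 12.6 and 17.6 TPM in vehicle, and 1.43, 2.15 and 3.21 TPM in normal control. For both genes every wounded library was above every normal control library. The log2 fold change of Adamts7 was 3.74 ± 0.19 in vehicle and 3.58 ± 0.19 in SKF (edgeR adjusted p = 5.99e-15 and 1.7e-14), and on log2(TPM + 1) the vehicle value was 2.40. That of Adamts9 was 2.32 ± 0.17 in vehicle and 2.04 ± 0.17 in SKF (edgeR adjusted p = 1.43e-11 and 1.97e-10).

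Adamts15, Adamts20 and Adamts12 were lower. Adamts15, which cuts versican and aggrecan, had 2.44, 4.65 and 6.10 TPM in SKF, 3.48, 4.35 and 6.41 TPM in vehicle, and 3.97, 8.37 and 11.9 TPM in normal control. The groups overlapped through normal control 6, its lowest library. The log2 fold change was -1.01 ± 0.18 in vehicle and -0.995 ± 0.18 in SKF (edgeR adjusted p = 2.92e-05 and 3.95e-05), while Adamts8, its neighbour on chromosome 8, did not pass. Adamts20, known in mouse for pigment cell development, had 3.74 to 5.16 TPM in SKF, 2.87 to 6.40 TPM in vehicle and 6.73 to 8.74 TPM in normal control, with no overlap in either comparison. Its log2 fold change was -0.81 in vehicle and -0.86 in SKF. Adamts12, a relative of Adamts7, had a log2 fold change of -0.69 in vehicle and -0.82 in SKF.

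Adamts4, an aggrecan- and brevican-cutting protease, was already abundant without a wound. It had 44.8, 58.5 and 67.1 TPM in SKF, 49.3, 63.9 and 94.8 TPM in vehicle, and 34.5, 53.4 and 59.4 TPM in normal control. The ranges overlapped, and the log2 fold change of 0.23 ± 0.11 in vehicle did not pass (edgeR adjusted p = 0.0777), although it did on the TPM scale at 0.34 and without vehicle 5 (edgeR adjusted p = 0.0271). Its median share of the summed Adamts level was 28.3% in SKF, 28.0% in vehicle and 39.7% in normal control. The procollagen-processing Adamts2, Adamts3 and Adamts14, the von Willebrand factor-cutting Adamts13, and Adamts6, Adamts10, Adamts17 and Adamts19 did not pass in any comparison. Several of these sat near the threshold. Adamts17 passed as lower in SKF against normal control by DESeq2 (adjusted p = 0.0404), with only the 2 groups compared by edgeR (adjusted p = 0.0402), and without normal control 6, vehicle 2 or SKF 7 (edgeR adjusted p = 0.0168, 0.0223 and 0.0261). Adamts10 passed as higher in vehicle on the TPM scale and without normal control 4 or vehicle 7 (edgeR adjusted p = 0.0316 and 0.0384). Adamts3 passed as lower in vehicle without normal control 4, vehicle 3 or vehicle 8 (edgeR adjusted p = 0.0331, 0.0409 and 0.0461), and Adamts6 as lower in SKF without normal control 8 (edgeR adjusted p = 0.0419). Of the ADAMTS-like genes, which lack the protease domain, Adamtsl1 was higher by 0.82 ± 0.19 in vehicle (edgeR adjusted p = 0.000551) and 0.68 ± 0.19 in SKF (adjusted p = 0.0035) on the log2 scale. Adamtsl4 was higher in vehicle by 0.72 ± 0.27 (adjusted p = 0.0248), a call lost without normal control 1, normal control 8 or vehicle 2 (adjusted p = 0.0510, 0.0507 and 0.0640). In SKF Adamtsl4 did not pass (edgeR adjusted p = 0.155), except without normal control 4 (adjusted p = 0.0380).

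SKF was also compared with normal control directly, with the same 8 control libraries as vehicle. Of the 40 tested genes, 13 were higher, 8 were lower and 19 did not pass, or 52.5% called against a background of 50.2% (higher 25.5%, lower 24.7%). At least a 2-fold change was found for 10 higher genes (background 6.74%) and 1 lower gene (background 3.34%), and 11 genes did not overlap in TPM (background 18.4%). Mmp3, Mmp8, Mmp12 and Mmp25 are in the 13, the 10 and the 11, so part of these counts too was fixed by the filter. Because both comparisons use the same controls, the values of each gene are given side by side above and not counted as agreement. Mmp15 and Adamtsl4 were called in vehicle but not in SKF, and neither differed between SKF and vehicle beyond the threshold.

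Between SKF and vehicle, the comparison that bears on the agonist, none of the 40 genes passed, against a background of 0 of 14421 genes by edgeR. At an unadjusted p under 0.05, 2 of the 40 differed (background 4.96%, 715 genes). DESeq2 called 0 of the 40, with 4 of them, and 765 of all 14421 genes, at an unadjusted p under 0.05. Over all genes DESeq2 called 1 higher and 5 lower. The log2 fold change was negative for 28 of the 40 and positive for 12, with a median of -0.13 against 0.0012 for all genes, and the smallest adjusted p was 0.937. No gene of the 40 separated the groups without overlap (background 0.0208%).

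The 5 genes with the smallest unadjusted p were each lower in value in SKF. Adamts5 had 0.863, 2.03 and 3.11 TPM in SKF against 1.92, 3.07 and 3.23 TPM in vehicle, and its log2 difference was -0.54 ± 0.22 (adjusted p = 0.937 by edgeR). Its SKF and vehicle ranges overlapped, with 4 SKF libraries below the lowest vehicle library. Mmp14 had a log2 fold change of -0.31 ± 0.14, Mmp2 of -0.47 ± 0.25, Adamts9 of -0.29 ± 0.15 and Mmp8 of -0.72 ± 0.39, each with an adjusted p of 0.937 by edgeR. For Mmp2, 5 SKF libraries lay below the lowest vehicle library, and for Mmp8 4 did. The neutrophil marker sum was lower in every SKF library (highest 144.3 TPM) than in every vehicle library (lowest 145.1 TPM), although 0 of its 5 tested markers passed in this comparison; its part in the Mmp8 value was not tested. For Timp1 the log2 difference was -0.14 ± 0.14, for Mmp9 -0.05 ± 0.31, for Mmp3 -0.57 ± 0.35 and for Timp4 0.23 ± 0.20, none of which passed.

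Genes that work with these proteases gave the following counts in vehicle against normal control, where 26.9% of all genes were higher and 27.1% lower. In the plasmin system and among Mmp activators, 5 of 9 tested genes were higher and 4 were lower (median log2 fold change 0.49, against -0.01 for all genes). Plaur, the urokinase receptor, was among the higher genes, with a log2 fold change of 4.07 ± 0.30. The lower genes were Serpine2 at -0.86, Pcsk5 at -0.35, Pcsk6 at -0.29 and Plat at -0.18. Among other inhibitors and cofactors 6 of 14 were higher and 5 lower (median 0.29). They included Cd44, a cell-surface docking receptor for Mmp9, at 3.87 ± 0.16, and Lcn2, which binds Mmp9, at 7.24 ± 0.38, against the testicans Spock1, Spock2 and Spock3 at -0.78, -0.75 and -1.22, with Sparc at -0.57 and Bsg at -0.15 also lower.

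Of the ADAM and astacin relatives 8 of 12 were higher and 1 lower (median 0.39), led by Adam8 at 2.02 ± 0.14 and Adam12 at 1.47 ± 0.13, with Adam23 at -0.59. Among the proteoglycan substrates and their partners 3 of 9 were higher and 4 lower (median -0.35). Tnc at 1.82 ± 0.14, Vcan at 0.99 ± 0.09 and Ncan at 1.35 ± 0.13 were higher. Bcan at -1.03, Hapln1 at -1.34, Acan at -0.77 and Tnr at -0.67 were lower, and Hapln2 and Hapln4 did not pass. Hapln1 had 5.85 to 12.2 TPM in SKF, 5.10 to 11.6 TPM in vehicle and 15.3 to 26.4 TPM in normal control, with no overlap between wounded and normal control libraries. Of the subunits of AP-1, 6 of 8 were higher and 1 lower (median 0.49), with Atf3 at 4.43 ± 0.21, Jun at 1.19 ± 0.11 and Fosb at -0.74. In SKF against normal control, where 25.5% of all genes were higher and 24.7% lower, the higher and lower counts were 5 and 3 for the plasmin system, 6 and 4 for inhibitors and cofactors, 8 and 1 for the ADAM relatives, 3 and 5 for the substrates, and 4 and 2 for AP-1. No gene of these lists passed between SKF and vehicle.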

How the data were processed

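Poly(A)-selected RNA from 24 brain samples, 8 per group, was sequenced with a directional kit, per the labels. The authors deposited whole-number read counts per gene, made on build mRatBN7.2 per the submitters' processing notes; the aligner and the counter were not recorded in the sources used here. The authors also deposited TPM values for the same genes. The count test was edgeR's (version 4.0.16, R 4.3.3; TMM, filterByExpr by group, robust quasi-likelihood F test, 21 residual degrees of freedom, biological coefficient of variation 16.2%), with all 24 libraries in 1 fit, and the procedure was tested on simulated data. TPM gave the levels and an alternative test with limma 3.58.1; DESeq2 1.42.0 was another. Full values are given for the Timp genes and for genes called in vehicle with a 2-fold change or more whose average log2 CPM reached 1, and for the 5 smallest p-values in SKF against vehicle; in partner lists, for the 2 smallest adjusted p-values and genes that went the other way, except 1 gene that is not reported here. Relations within groups used log2(TPM + 0.1) and exact two-sided permutation tests. Genes and lists were chosen with earlier results of these data known. RefSeq tables gave gene order and promoters.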

Additional observations from a re-analysis of the deposited data

Results flagged for a closer look

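In 15 of the 120 gene and group combinations of the 40 tested genes, 1 library stood apart from the other 7 by Dixon's 95% critical value; chance gives about 1 in 20. Normal control 6 stood low for Adamts1 at 4.02 TPM, for Adamts2 at 1.08 TPM and for Adamts5 at 0.838 TPM, and high for Adamts6 at 9.47 TPM and for Mmp17 at 89.1 TPM. The same library was the lowest normal control library for 21 of the 40 tested genes, or 52.5%, against 33.7% of all 14421 genes. Its choroid plexus markers summed to 8.71 TPM, against 1605 to 12459 TPM in the other 7 normal control libraries, and its oligodendrocyte sum of 9524 TPM and fibroblast and meningeal sum of 61.3 TPM were the lowest of the 8. The part of these markers was not tested. Vehicle 2 stood high for Adamts4 at 94.8 TPM and for Adamtsl4 at 15.0 TPM, and low for Adamts17 at 0.931 TPM and for Mmp24 at 27.4 TPM. Vehicle 1 stood high for Mmp9 at 34.0 TPM, and vehicle 6 stood low for Mmp25 at 0.243 TPM. Normal control 5 stood high for Mmp12 at 0.237 TPM, where the other 7 were at 0, and normal control 8 stood low for Mmp15 at 25.2 TPM. SKF 8 stood high for Adamts12 at 1.38 TPM, and SKF 7 stood low for Mmp16 at 13.4 TPM.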

How the results depend on the processing

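The counts of higher and lower genes stayed within 1.5 times their values under 8 alternatives. They also did without normal control 4 and 6 together and under the omission of each library in turn. In vehicle against normal control they ran from 12 higher (only the 2 groups compared) to 18 higher and 6 lower (TPM); in SKF against normal control from 12 to 14 higher and from 7 to 9 lower. Leaving out 1 library gave 13 to 15 higher and 9 to 10 lower in vehicle, 13 to 14 higher and 8 to 9 lower in SKF, and 0 between SKF and vehicle. No called gene changed sign. With only the 2 groups compared, Mmp8 and Mmp25 in vehicle and Mmp8 in SKF were left untested by the filter on low counts. Among genes that were tested, calls were lost in 11 cases, which are Adamtsl4 without 1 of 3 libraries, and Timp3, Mmp15 and Mmp28 in vehicle and Mmp24 in SKF on both TPM scales; the cause was not tested. With no filter on low counts Mmp7 passed in both wounded groups (log2 fold change 3.72 in vehicle and 3.13 in SKF). Fold changes of genes near 0 in normal control depend on the pseudocount, and on log2(TPM + 1) the vehicle values were 2.13 for Mmp12, 1.34 for Mmp8 and 0.73 for Mmp25. The labels do not say whether replicate numbers pair the samples. Same-numbered libraries had correlations of deviations from -0.24 to 0.08, and 0 of 8 correlated best with their own number. These values show no shared effect of the number but cannot tell whether samples were matched. With the replicate number as a block, 14 genes were higher and 9 lower in vehicle, 13 higher and 8 lower in SKF, and 0 differed between SKF and vehicle. For the other untested genes, the part of sequencing depth in their low counts was not tested.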
